A study of Prunus persica with 25 samples.

Results

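*DAM1* (PRUPE_1G531100), *DAM2* (PRUPE_1G531300), *DAM3* (PRUPE_1G531400) and *DAM4* (PRUPE_1G531500) were followed through winter in peach buds. The 4 genes were chosen by their identifiers, all 4 of 4 were present among the 26873 genes counted, and all passed the filter on low counts in both models used below. The data were RNA sequencing counts of 25 libraries from axillary buds of the peach cultivar Fantasia. Vegetative buds of year A were collected at 0CU, 475CU and 770CU, and vegetative buds of year B at Pre0CU, 200CU, 475CU and Post770CU, with 3 libraries at each collection. Flower buds were collected in year B at Post770CU and Pre0CU, with 2 libraries at each. CU are chilling units, a running sum of the cold that buds have received. Pre0CU lies before the first unit, and Post770CU lies after the requirement of the cultivar had been met. The buds came from untreated orchard trees in axillary triplets with 1 vegetative bud between flower buds, and their scales were removed before RNA extraction. According to the methods of the study, a few trees formed the replicates, but the labels do not tie a library to a tree, so the p-values measure the spread between these libraries only.

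*DAM* genes are DORMANCY-ASSOCIATED MADS-box genes, which lie one after another in a cluster of the peach genome. They encode transcription factors related to Short Vegetative Phase (SVP) and Agamous-like 24 of Arabidopsis, which act in the timing of flowering. The peach mutant evergrowing, in which part of this cluster is lost, does not set a dormant terminal bud, and *DAM* genes are studied for their part in bud set and in the release of buds by cold. Members of the cluster resemble each other in sequence. How reads that fit several copies were counted is not given in the sources used here, so a share of the counts of one member could come from another. In whole buds, fewer cells that express a gene and less RNA per cell cannot be told apart.

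Total counts were 39615840 to 68355366 per library in year A, 39891412 to 71239880 in the vegetative buds of year B and 44894673 to 61090788 in flower buds. The counts of the seasons differed in kind. In year A, 96.0 to 96.4% of the counts above 0 were even numbers and 4076 to 4756 genes were at 0, against 49.4 to 50.5% and 14 to 38 genes in the vegetative buds of year B. The labels give polyA RNA for the vegetative buds of Post770CU and for all flower buds, and total RNA for the other vegetative buds, with 1 library kit named for all, and the methods of the study name total RNA sequencing for year A. The flower meristem genes *LFY*, *AGL79* and *AGL20B* all had counts in every library. Summed, they were at 9.55 to 43.2 CPM (counts scaled to the library size) in vegetative and 91.0 to 119 CPM in flower buds. The low level of *AGL20B* added little to this gap. Its mean at Post770CU was 1.39 CPM in vegetative against 1.21 CPM in flower buds. The Pre0CU means of *AGL20B* were 2.11 CPM (vegetative) and 4.44 CPM (flower). The summed level of *STM*, *PRS* and *WOX13*, genes of vegetative and other meristems, was 18.6 to 126 CPM in vegetative buds and 46.7 to 58.4 CPM in flower buds. This sum did not mark vegetative buds. At Pre0CU it was 54.5 to 61 CPM in vegetative and 46.7 to 51.6 CPM in flower buds. At Post770CU it was lower in vegetative buds, at 28.4 to 30.8 CPM against 55.1 to 58.4 CPM. The vegetative libraries highest in the flower meristem sum were libraries 1 and 2 of 475CU in year B, at 43.2 and 40.3 CPM, against 10.9 CPM in library 3. Levels are given as CPM scaled by TMM over all 25 libraries, and they are compared between collections and not between genes, because gene lengths were not used.

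In the vegetative buds of year B, *DAM1* fell early and *DAM4* rose early, while *DAM2* and *DAM3* were not called before the last step, at which both fell. *DAM1*, the first gene of the cluster, was at 176, 171 and 179 CPM at Pre0CU, 60.1, 58.1 and 59.9 CPM at 200CU, 60.5, 65.4 and 65.2 CPM at 475CU, and 35.9, 33.7 and 36.2 CPM at Post770CU. All 3 Pre0CU libraries lay far above the other 9, and the 3 Post770CU libraries lay lowest. The means were 175 ± 3.9, 59.4 ± 1.13, 63.7 ± 2.73 and 35.3 ± 1.38 CPM (SD, n = 3 each). The ranges of 475CU and 200CU did not overlap, but their difference was not called.

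*DAM4*, the fourth gene, was at 44.6, 41.1 and 45.8 CPM at Pre0CU, 155, 155 and 160 CPM at 200CU, 217, 230 and 243 CPM at 475CU, and 168, 162 and 159 CPM at Post770CU. The highest libraries were those of 475CU, and the libraries of Post770CU and 200CU overlapped. The means were 43.8 ± 2.44, 157 ± 3.14, 230 ± 12.7 and 163 ± 4.91 CPM (SD, n = 3 each). Across the 12 libraries the Pearson correlation of log2 CPM between *DAM1* and *DAM4* was -0.84, which is a description over libraries that share collection and depth. Over the 9 libraries of year A it was weaker, at -0.31.

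*DAM2*, the second gene, was at 48.1, 44.9 and 46.2 CPM at Pre0CU, 46.8, 45.4 and 46.4 CPM at 200CU, 51.4, 57.1 and 55.7 CPM at 475CU, and 31.0, 29.3 and 31.8 CPM at Post770CU. The libraries of 200CU and Pre0CU overlapped, those of 475CU lay above them and those of Post770CU below. *DAM3* likewise was highest at 475CU and lowest at Post770CU. *DAM3*, whose protein the study tested for binding to SVP1, was at 66.0, 64.5 and 68.4 CPM at Pre0CU, 75.2, 75.1 and 77.7 CPM at 200CU, 83.9, 92.6 and 92.3 CPM at 475CU, and 54.7, 52.3 and 53.8 CPM at Post770CU. No collection of *DAM3* overlapped with another. Over the 12 libraries the correlation of *DAM2* with *DAM3* was 0.94, that of *DAM1* with *DAM2* was 0.54 and that of *DAM2* with *DAM4* was -0.01.

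**Figure D1:**
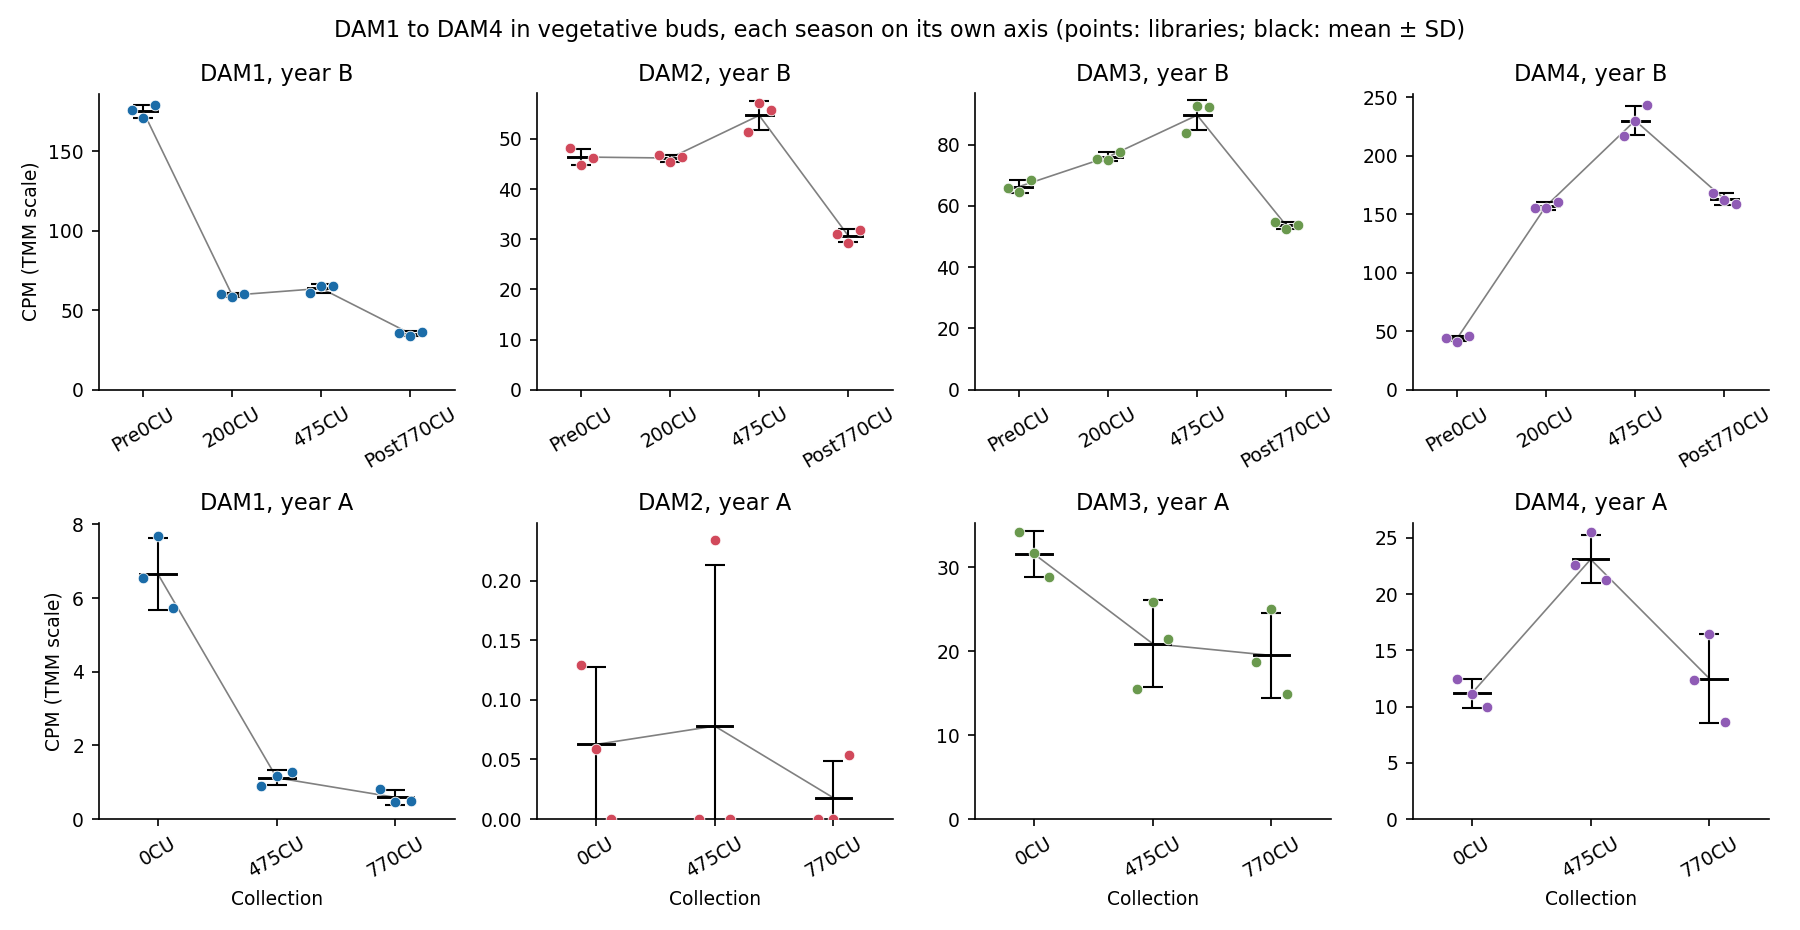
Level of *DAM1* to *DAM4* (CPM on the TMM scale, linear axis from 0) in each vegetative bud library by collection, year B in the upper row and year A in the lower row, each panel with its own axis. Points are libraries, black bars are the mean ± SD and grey lines join the means. *DAM1* is highest at the first collection of each season and *DAM4* highest at 475CU, while *DAM1* reaches 179 CPM in year B and 7.68 CPM in year A.

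The first comparison set 200CU against Pre0CU. By the sampling calendar of the study, date and day length changed along with the chilling units. These cannot be told apart in this or any other comparison between collections of a season. A gene was called when the edgeR quasi-likelihood test gave a Benjamini-Hochberg adjusted p under 0.05 over all genes tested and the fold change exceeded 1.4. Of the 4 members, 1 was called higher and 1 lower, where 20.4% of the 26752 genes tested were called, 9.14% higher and 11.2% lower. The median log2 fold change was 0.12 over the members and 0.03 over all genes. *DAM1* was 2.89-fold lower at 200CU (log2 -1.53, SE 0.099, adjusted p = 3.72e-10 in edgeR). *DAM4* was 3.65-fold higher (log2 1.87, SE 0.13, adjusted p = 1.36e-09 in edgeR). *DAM2* differed by 0.02 on the log2 scale, with a 95% interval from -0.30 to 0.35, and *DAM3* by 0.23, with an interval from -0.05 to 0.50, and neither was called.

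At 475CU against 200CU *DAM4* was the only member called, where 6.31% of all genes were called and 2.76% were called higher. It was 0.56 higher on the log2 scale at 475CU (SE 0.13, adjusted p = 0.00552 in edgeR). The other members had log2 values of 0.11 (*DAM1*), 0.26 (*DAM2*) and 0.25 (*DAM3*), with adjusted p of 0.556, 0.398 and 0.301 in edgeR. Without libraries 1 and 2 of 475CU, which were high in *LFY*, the log2 value of *DAM4* was 0.64 and its adjusted p was 0.0645 in edgeR, with 1 library left at 475CU and the spread taken from the other groups. That library had the lowest sum of flower meristem genes of its collection and the highest *DAM4* level, 243 CPM.

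At Post770CU against 475CU all 4 members fell, where 13.6% of all genes were called, 3.67% higher and 9.88% lower. The log2 values at Post770CU against 475CU were -0.86 for *DAM1*, -0.84 for *DAM2*, -0.75 for *DAM3* and -0.51 for *DAM4*, with adjusted p of 2.05e-06, 0.000812, 0.000417 and 0.00519 in edgeR. In no member did the libraries of Post770CU and 475CU overlap. The median over the members was -0.79, against 0.00 over all genes. The call of *DAM4* rested on library 3 of 475CU, since without it the log2 value was -0.47, under the fold limit, with an adjusted p of 0.0198 in edgeR. Without libraries 1 and 2 of 475CU the log2 values were -0.89, -0.87, -0.79 and -0.58 for *DAM1* to *DAM4*, but they then rest at 475CU on library 3 alone, the one highest in *DAM4*, with the spread taken from the other groups. Post770CU and 475CU also differ in the RNA named by the labels, and the RNA and the collection cannot be told apart in this comparison.

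Over the whole of year B, at Post770CU against Pre0CU, 1 member rose and 2 fell, where 35.5% of all genes were called and 16.3% were called higher. *DAM1* was lower (log2 -2.28, SE 0.10, adjusted p = 5.29e-13 in edgeR), which is the largest fold of the 4. *DAM2* was lower by less (log2 -0.56, SE 0.17, adjusted p = 0.00814 in edgeR). *DAM4* was higher (log2 1.93, SE 0.13, adjusted p = 2.33e-10 in edgeR). *DAM3* had a log2 value of -0.27 with an interval from -0.55 to 0.00 and was not called (adjusted p = 0.113 in edgeR), although its libraries of the 2 collections did not overlap. The RNA named by the labels differs between these collections as well. This comparison shares its libraries with those of the single steps, so it is no separate evidence for them.

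**Figure D2:**
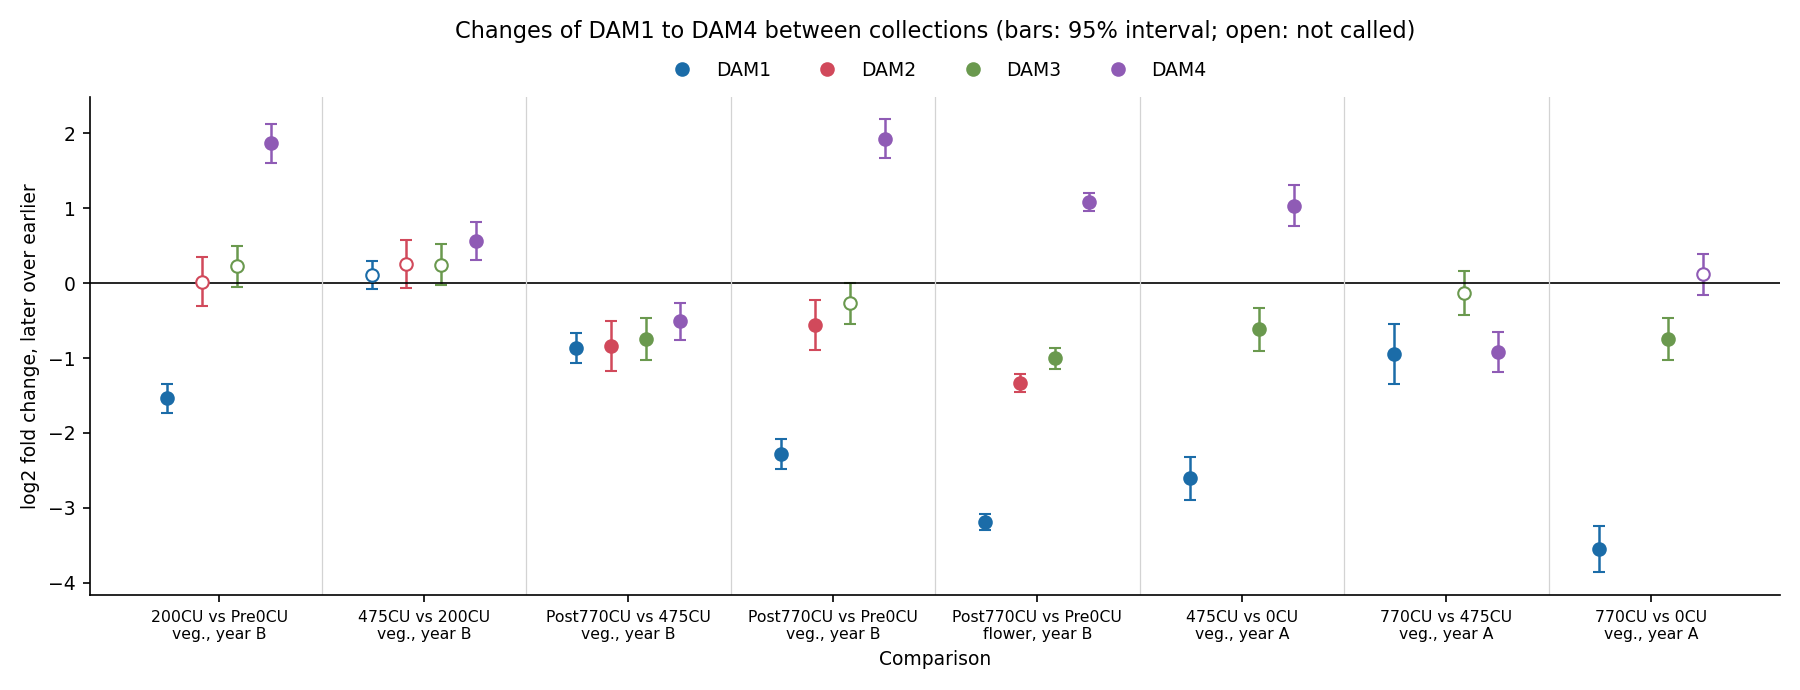
Log2 fold change of *DAM1* to *DAM4*, later over earlier collection, in 8 comparisons (edgeR), with 95% intervals. Filled points were called at an adjusted p under 0.05 and a fold change above 1.4, open points were not, and *DAM2* is left out of year A, where its counts were at or near 0. All 4 members lie below 0 at Post770CU against 475CU, and *DAM4* lies above 0 in flower buds at 1.09 while the other members lie below.

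In year A the members were measured at 0CU, 475CU and 770CU. *DAM1* was at 6.54, 7.68 and 5.72 CPM at 0CU, 0.889, 1.17 and 1.29 CPM at 475CU, and 0.824, 0.460 and 0.480 CPM at 770CU. No collection overlapped with another, and the 770CU libraries rested on 34, 24 and 18 counts. Like most counts of year A these were even numbers, and whether each count stands for a separate read was not tested. *DAM1* was lower at 475CU than at 0CU (log2 -2.60, SE 0.14, adjusted p = 9.12e-11 in edgeR), where 3 of 4 members and 23.5% of all genes were called, 1 member and 9.74% of all genes higher. At 770CU it was lower than at 475CU (log2 -0.95, SE 0.20, adjusted p = 0.00191 in edgeR), where 2 of 4 members and 13.2% of all genes were called, both members and 8.77% of all genes lower. The same-numbered libraries of 770CU and 475CU deviated together, and with the number as a block in a fit of the 9 year A libraries the value of *DAM1* was -0.96 with an adjusted p of 0.0618 in edgeR, so it was not called there. That block also tied the 0CU libraries by number. Their same-numbered deviations correlated at only -0.2 to 0.01 with those of 475CU and -0.01 to 0.09 with those of 770CU. At 770CU against 0CU *DAM1* was 11.7-fold lower (log2 -3.55, SE 0.16, adjusted p = 1.3e-12 in edgeR), where 2 of 4 members and 32.7% of all genes were called.

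*DAM4* peaked at 475CU in year A too. It was at 12.5, 11.1 and 9.93 CPM at 0CU, 22.6, 25.5 and 21.3 CPM at 475CU, and 12.4, 16.5 and 8.59 CPM at 770CU. Every 475CU library lay above all others, and the libraries of 770CU and 0CU overlapped. It was higher at 475CU than at 0CU (log2 1.03, SE 0.14, adjusted p = 7.17e-06 in edgeR) and lower at 770CU than at 475CU (log2 -0.92, SE 0.14, adjusted p = 7.67e-05 in edgeR). Between 770CU and 0CU the value was 0.12 with an interval from -0.16 to 0.39, and it was not called.

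*DAM3* was at 34.2, 31.7 and 28.8 CPM at 0CU, 15.5, 25.9 and 21.4 CPM at 475CU, and 18.7, 25.0 and 14.9 CPM at 770CU. The 0CU libraries lay above all others, while 770CU and 475CU overlapped. It was lower at 475CU than at 0CU (log2 -0.61, SE 0.15, adjusted p = 0.0022 in edgeR), a call that rested on library 1 of 475CU, since without it the value was -0.42 with an adjusted p of 0.0234 in edgeR. It was also lower at 770CU than at 0CU (log2 -0.74, SE 0.15, adjusted p = 0.000251 in edgeR). Between 770CU and 475CU the value was -0.13 with an interval from -0.42 to 0.16, and it was not called.

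*DAM2* was hardly counted in year A. It had 6, 2 and 0 counts at 0CU, 0, 8 and 0 counts at 475CU, and 0, 0 and 2 counts at 770CU, so 5 of 9 libraries were at 0 and the sum over the season was 18. A count of 3, taken as the smallest signal, corresponds to 0.057 to 0.088 CPM in these libraries, a limit that covers counting error only. All counts of *DAM2* in year A were even numbers, which this limit does not take into account. No change of *DAM2* within year A was detectable at this depth, and no fold is given. In year B, vegetative and flower buds together, the lowest library of *DAM2* had 992 counts.

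The 475CU buds were collected in both seasons at the same chilling, but at different dates and day lengths by the calendar of the study. All 4 members were lower in year A, where 69.2% of all genes were called and 45.0% were called lower. *DAM1* was at 0.889, 1.17 and 1.29 CPM at 475CU of year A, against 60.5, 65.4 and 65.2 CPM at 475CU of year B. The log2 fold changes of year A over year B were -5.87 for *DAM1*, -2.12 for *DAM3* and -3.33 for *DAM4* (SE 0.14, 0.15 and 0.14, adjusted p = 3.81e-17, 1.04e-10 and 8.93e-14 in edgeR). All genes tested had a median of -0.35. *DAM2* was at 0, 0.234 and 0 CPM in year A, against 51.4, 57.1 and 55.7 CPM in year B. Its fitted log2 value of -9.65 depends on the prior count and on 8 counts in 1 library, without which it was -14.47. The season, the date and day length of its collection, and the way its counts were made cannot be told apart in this comparison. The share of even counts and the number of genes at 0 changed with the season. With year A counts halved the log2 values of *DAM1*, *DAM3* and *DAM4* were -5.89, -2.14 and -3.34. The library totals changed by the same factor, so this refit could not test whether the even counts bear on the gap.

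The shift between seasons was uneven along the cluster. Of the 26752 genes tested, 13.5% were at least as low in year A as *DAM1*, 20.6% as *DAM4* and 25.8% as *DAM3*. For *DAM2*, whose fitted value depends on the prior count, the share was 0.901%. Many genes were at 0 in year A. The shares were smaller among the 9811 genes at 20 CPM or more in the year B buds of this comparison. They were 0.194% (*DAM1*), 0.499% (*DAM4*), 1.65% (*DAM3*) and 0.051% (*DAM2*). That subset was chosen by level on the year B side of the same comparison. Its shares therefore cannot tell whether the members stand out. PRUPE_1G531200, an identifier between those of *DAM1* and *DAM2* that was added after its values were seen, had a log2 value of -8.66 on 3, 4 and 4 counts in year A. *DAM5* and *DAM6*, the neighbours at the other end of the cluster, had values of -3.11 and -1.79. Outside the cluster the identifiers PRUPE_1G531000, PRUPE_1G531800 and PRUPE_1G531900, also added afterwards, had values of -0.70, -0.12 and 0.53, and the last was higher in year A.

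**Figure D3:**
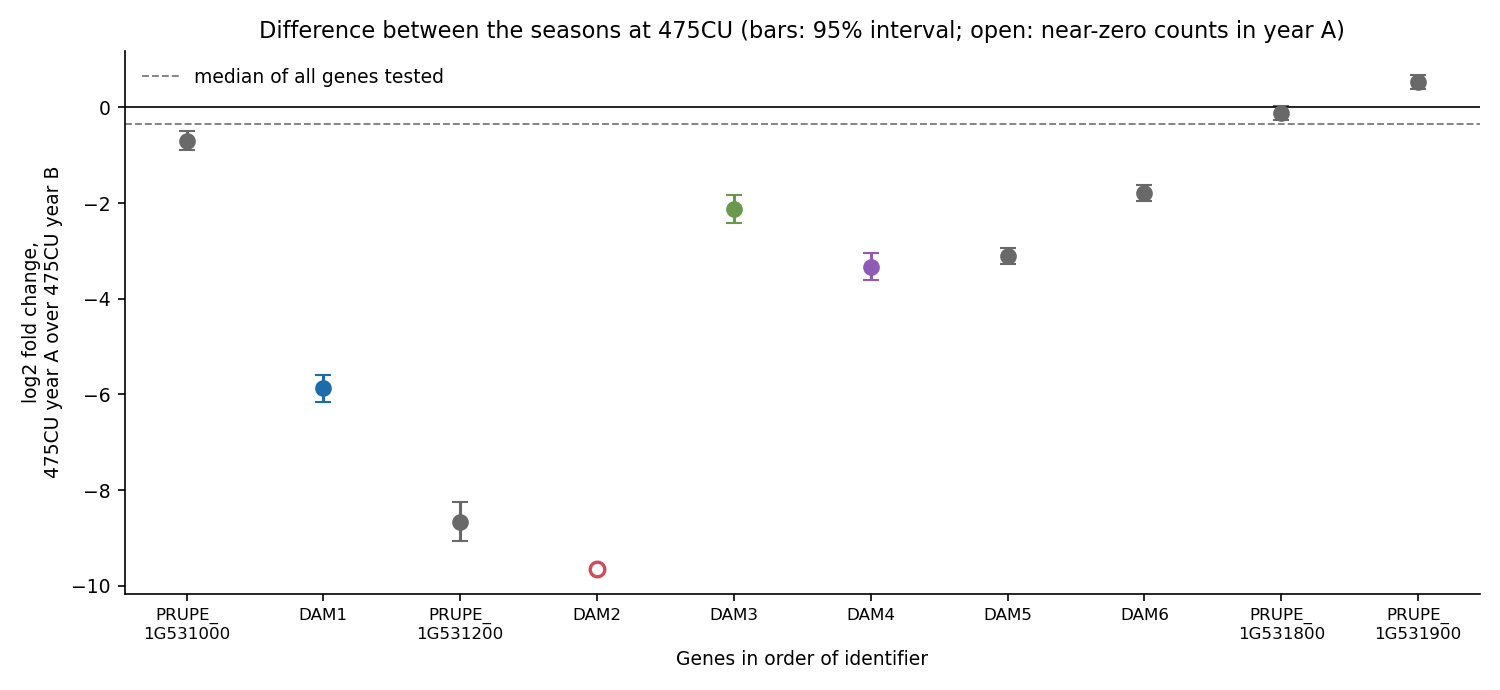
Log2 fold change at 475CU, year A over year B (edgeR), for *DAM1* to *DAM6* and the identifiers beside and between them, with 95% intervals, in the order of their identifiers. The dashed line is the median of all genes tested, -0.35, and the open point of *DAM2* is drawn without an interval because its counts in year A were 0, 8 and 0. The lowest values are those of *DAM2*, PRUPE_1G531200 and *DAM1*, and the genes outside the cluster lie between -0.70 and 0.53.

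0CU of year A and Pre0CU of year B lie in different seasons. They were set against each other with the gap of the seasons at 475CU taken off for each gene. By this bridged contrast 3 of 4 members were higher at 0CU than at Pre0CU, where 20.2% of all genes were called, 10.9% higher and 9.28% lower. The log2 values were 1.18 for *DAM1*, 1.09 for *DAM3* and 1.4 for *DAM4*, with adjusted p of 5.23e-05, 0.00043 and 1.65e-05 in edgeR. The contrast assumes that the season acted on each gene at 0CU as it did at 475CU. The direct difference had the other sign, with log2 values of -4.69, -1.03 and -1.93 at 0CU against Pre0CU, so the direction of these values is set by the subtraction.

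Ratios of counts within a library do not depend on the depth or the scaling of that library. In vegetative buds of year B the ratio of *DAM4* to *DAM1* was 0.240 to 0.256 at Pre0CU, 2.57 to 2.68 at 200CU, 3.51 to 3.72 at 475CU and 4.38 to 4.80 at Post770CU, and no collections overlapped. The range was higher at each later collection, with the largest part of the change between Pre0CU and 200CU. The mean log2 ratio was 2.21 at Post770CU and -2.00 at Pre0CU, a difference of 4.21. An exact two-sided permutation test over 3 against 3 libraries gave p = 0.1, the smallest it allows, and p = 0.127 after adjustment over the 19 ratio tests made.

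The ratio of *DAM2* to *DAM1* was 0.258 to 0.274 at Pre0CU, 0.774 to 0.782 at 200CU, 0.849 to 0.873 at 475CU and 0.865 to 0.878 at Post770CU. After Pre0CU it thus stayed between 0.774 and 0.878. *DAM3* over *DAM1* also changed most at the first step, with means of 0.378, 1.28, 1.41 and 1.52 at the 4 collections. PRUPE_1G531200 over *DAM2* changed most at the first step too, with means of 0.489, 0.679, 0.681 and 0.704. *DAM4* over *DAM3* had means of 0.661, 2.06, 2.57 and 3.04, higher at each later collection. Whether shared reads hold these ratios together was not tested.

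In year A the mean ratio of *DAM4* to *DAM1* was 1.70 ± 0.232 at 0CU, 21.3 ± 4.52 at 475CU and 23.0 ± 11.3 at 770CU (SD, n = 3 each). The 770CU libraries ran from 15.1 to 35.9 and overlapped with 475CU. At 770CU against 0CU the log2 ratio was higher by 3.63 (exact permutation test, two-sided, p = 0.1, the smallest possible, adjusted p = 0.127). In flower buds the ratio was 4.24 and 4.34 at Post770CU, against 0.214 and 0.227 at Pre0CU, a log2 difference of 4.28 (exact permutation test over 2 against 2 libraries, p = 0.333, the smallest possible and unchanged by adjustment).

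**Figure D4:**
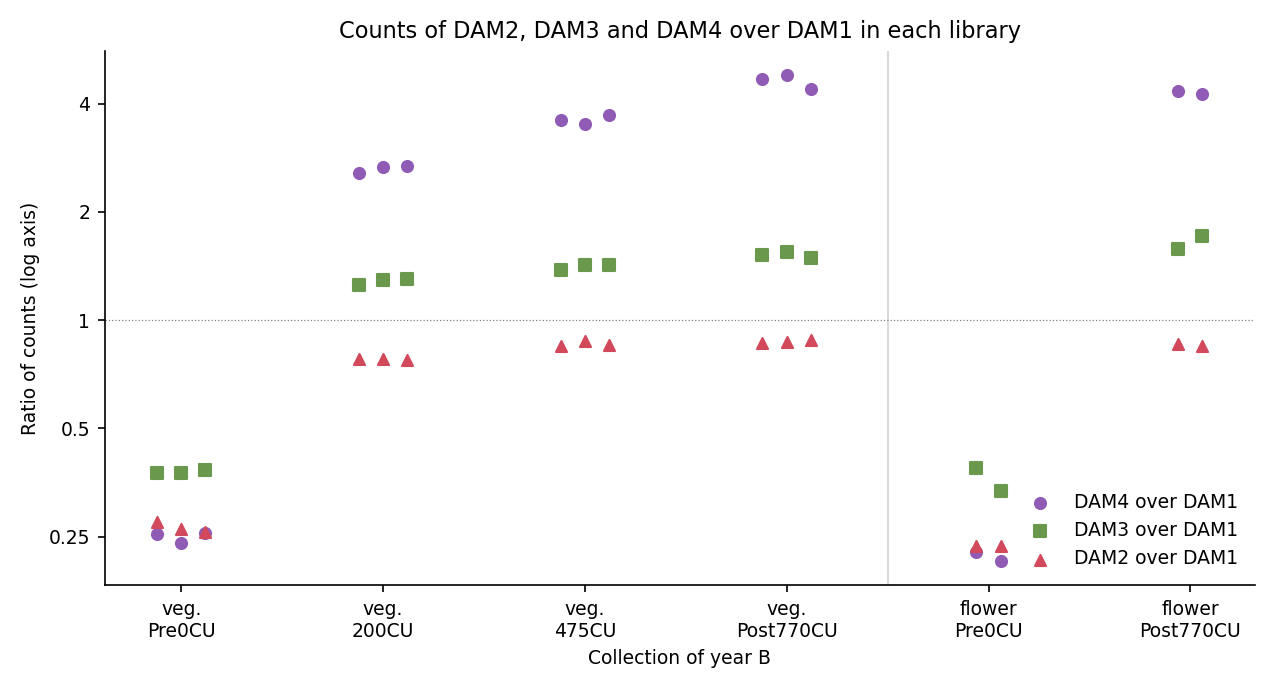
Ratio of counts of *DAM4*, *DAM3* and *DAM2* to *DAM1* in each library of year B, on a log axis, with the 4 vegetative collections on the left and the 2 flower collections on the right. Each point is 1 library. All ratios are at most 0.387 at Pre0CU, and in later collections *DAM4* over *DAM1* lies between 2.57 and 4.80 while *DAM2* over *DAM1* stays between 0.774 and 0.878.

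At Pre0CU the levels of the members in the bud types lay close together. *DAM1* was at 176, 171 and 179 CPM in vegetative buds, against 172 and 171 CPM in flower buds, and these libraries overlapped. *DAM3* was at 66.0, 64.5 and 68.4 CPM in vegetative buds, against 66.7 and 57.5 CPM in flower buds, and these overlapped as well. *DAM2* at 44.9 to 48.1 CPM in vegetative buds lay just above the flower buds at 40.6 and 40.1 CPM, and *DAM4* at 41.1 to 45.8 CPM in vegetative buds just above the flower buds at 39.2 and 36.6 CPM. None of the 4 was called by edgeR, where 7.88% of the 26790 genes tested were called, 3.23% higher and 4.66% lower, and none was called by DESeq2. *DAM2* and *DAM4* had an unadjusted p under 0.05, with log2 values of 0.20 and 0.21 and adjusted p of 0.017 and 0.0171 in edgeR, but their folds were under the limit. The intervals were -0.06 to 0.12 for *DAM1*, 0.10 to 0.30 for *DAM2*, -0.03 to 0.22 for *DAM3* and 0.10 to 0.32 for *DAM4*. The labels give total RNA for these vegetative buds and polyA RNA for these flower buds, and the RNA and the bud type cannot be told apart at Pre0CU.

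At Post770CU all 4 members were higher in vegetative buds, where 28.3% of all genes were called and 13.0% were called higher. *DAM1* was at 35.9, 33.7 and 36.2 CPM in vegetative buds, against 18.2 and 18.7 CPM in flower buds (log2 0.91, SE 0.048, adjusted p = 4.5e-09 in edgeR). *DAM2* was at 31.0, 29.3 and 31.8 CPM in vegetative buds, against 15.7 and 15.8 CPM in flower buds (log2 0.94, SE 0.056, adjusted p = 1.32e-08 in edgeR). *DAM3* was at 54.7, 52.3 and 53.8 CPM in vegetative buds, against 28.8 and 32.0 CPM in flower buds (log2 0.80, SE 0.067, adjusted p = 3.82e-07 in edgeR). The groups of these 3 genes did not overlap. *DAM4* was at 168, 162 and 159 CPM in vegetative buds, against 79.0 and 79.2 CPM in flower buds (log2 1.02, SE 0.054, adjusted p = 4.6e-09 in edgeR), and its groups lay apart as well. The 4 log2 values lay between 0.80 and 1.02, with a median of 0.92 against 0.01 over all genes. The labels give polyA RNA for both bud types at this collection.

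**Figure D5:**
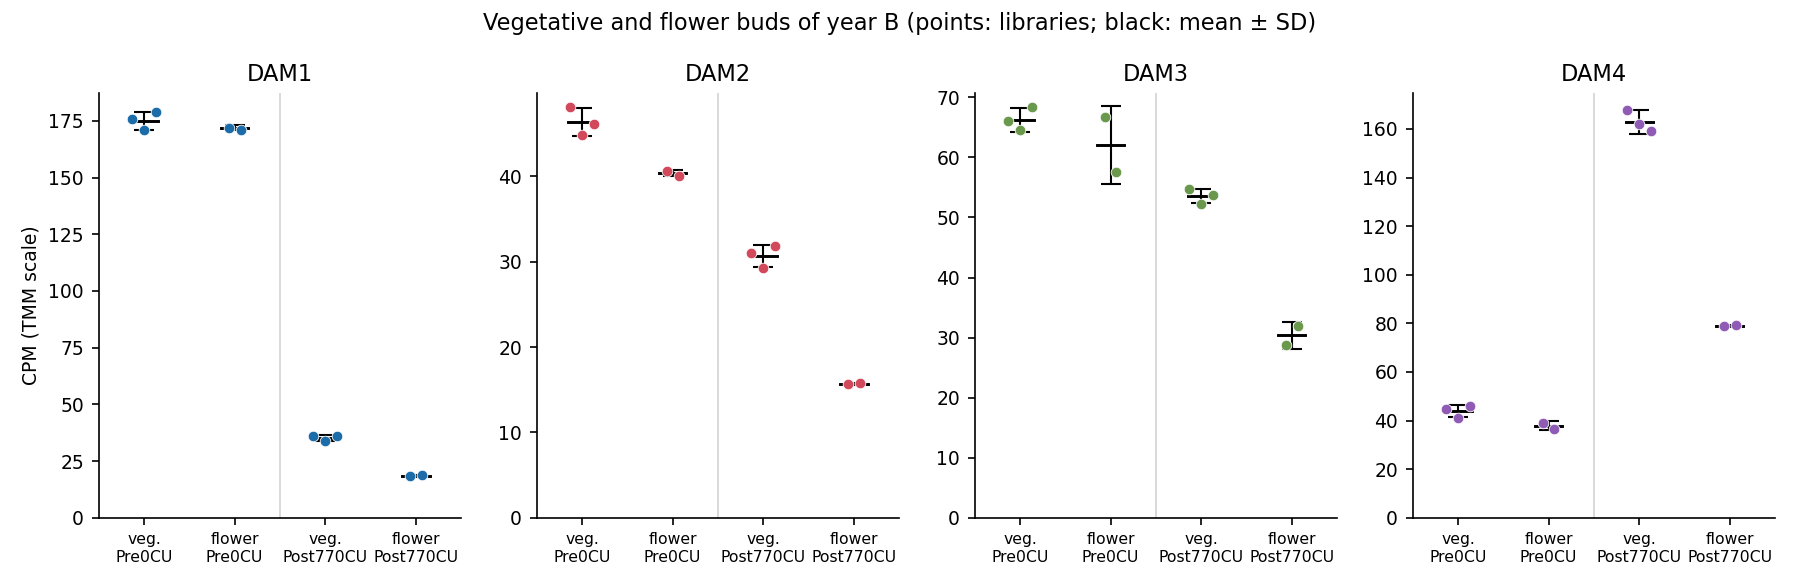
Level of *DAM1* to *DAM4* (CPM on the TMM scale, linear axis from 0) in vegetative and flower buds of year B at Pre0CU and Post770CU. Points are libraries and black bars are the mean ± SD. At Pre0CU the bud types lie close together in each panel, and at Post770CU every vegetative library lies above both flower libraries.

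Within flower buds all 4 members were called at Post770CU against Pre0CU, where 44.5% of all genes were called, 21.8% higher and 22.7% lower. *DAM1* was 9.12-fold lower at Post770CU (log2 -3.19, SE 0.054, adjusted p = 1.22e-13 in edgeR). *DAM2* and *DAM3* were lower as well (log2 -1.33 and -1, SE 0.060 and 0.073, adjusted p = 4.27e-10 and 4.27e-08 in edgeR). *DAM4* was higher, at 79.0 and 79.2 CPM at Post770CU against 39.2 and 36.6 CPM at Pre0CU (log2 1.09, SE 0.060, adjusted p = 2.66e-09 in edgeR). Both flower collections carry the label polyA RNA. With 2 libraries at each collection the spread was shared with the vegetative libraries of the same model.

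The difference of the changes, vegetative minus flower buds, was tested as an interaction of bud type and time, and all 4 members were called higher, where 24.6% of all genes were called and 11.4% were called higher. The log2 values were 0.88 for *DAM1*, 0.74 for *DAM2*, 0.70 for *DAM3* and 0.81 for *DAM4*, with 95% intervals of 0.76 to 1.01, 0.59 to 0.89, 0.52 to 0.88 and 0.66 to 0.96. The adjusted p were 3.23e-07, 6.29e-06, 5.35e-05 and 2.94e-06 in edgeR. Thus at Post770CU *DAM1*, *DAM2* and *DAM3* were lower by less in vegetative than in flower buds, and *DAM4* was higher by more. For *DAM3* the change within vegetative buds was itself not called. The 4 intervals overlapped, and the ratio of *DAM4* to *DAM1* at Post770CU was 4.38 to 4.80 in vegetative buds and 4.24 to 4.34 in flower buds. The interaction includes the vegetative buds of Pre0CU, which are labelled total RNA, and the part of the RNA in it was not tested.

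*DAM5* and *DAM6*, the members of the cluster most often linked to dormancy depth, were higher at 200CU than at Pre0CU in year B (log2 2.05 and 1.28) and lower at Post770CU than at 475CU (log2 -1.76 and -1.5), all called. *DAM4* thus rose together with *DAM5* and *DAM6* at 200CU, while *DAM1* fell. At 475CU against 200CU they parted, with *DAM4* at 0.56 (called) and *DAM5* and *DAM6* at -0.26 and -0.28 (not called). From 0CU to 475CU of year A the mean of *DAM4* went from 11.2 to 23.1 CPM. Over the same step *DAM5* went from 110 to 63 CPM and *DAM6* from 684 to 319 CPM. At Post770CU against Pre0CU, *DAM5* had a log2 value of 0.02 in vegetative buds and was not called, where *DAM4* was at 1.93. In flower buds *DAM5* fell (log2 -1.13) where *DAM4* rose. *DAM5* over *DAM4* was 0.948 to 0.995 at Post770CU in vegetative buds, against 3.55 to 3.75 at Pre0CU.

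*SVP1* and *SVP2*, which encode MADS-box proteins like the flowering repressor SVP of Arabidopsis, were also followed. *SVP1* was not called in the 4 comparisons of vegetative buds in year B, with its lowest value at Post770CU against Pre0CU (log2 -0.46, adjusted p = 0.000608 in edgeR, under the fold limit), and *SVP2* was called higher at Post770CU against Pre0CU (log2 0.49). In flower buds both fell (log2 -2.17 and -1.05). Their interaction values of 1.69 and 1.51 were called, as were those of the members.

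A list of 15 genes was read beside the members. It holds *DAM5*, *DAM6*, *SVP1* and *SVP2*, the flowering genes *AGL20A*, *AGL20B*, *AGL79* and *LFY*, the genes *FRIGIDA-likeA* to *FRIGIDA-likeD*, the histone methyltransferase gene *CLF*, the abscisic acid synthesis gene *NCED3* and the corepressor gene *TPR4*. In vegetative buds at Post770CU against Pre0CU, 3 of 15 rose, which were *SVP2*, *FRIGIDA-likeA* and *TPR4*, and 3 of 15 fell, which were *DAM6*, *AGL79* and *NCED3*, where 16.3% of all genes were called higher and 19.2% lower. These shares of the list are near those of all genes. *NCED3* fell by 5.52 on the log2 scale there, as *DAM1* also fell, while at 475CU against 0CU of year A *NCED3* was higher (log2 0.82, adjusted p = 0.0346 in edgeR) and *DAM1* lower (log2 -2.60). In flower buds 4 of 15 rose and 7 of 15 fell, where 21.8% of all genes were called higher and 22.7% lower. In the interaction 6 of 15 were higher in vegetative buds and 4 of 15 lower, with a median of 0.25. All 4 of 4 members were higher, with a median of 0.78. The median was 0.00 over all genes, of which 11.4% were called higher and 13.2% lower. The direction was not particular to the members. *SVP1* and *SVP2* had larger interaction values than any of them. From Pre0CU to Post770CU the mean of *DAM5* went from 160 to 159 CPM in vegetative buds and from 135 to 60.5 CPM in flower buds. *DAM6* went from 559 to 387 CPM in vegetative buds and from 506 to 113 CPM in flower buds.

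The genes most like a member were ranked over 14292 genes whose mean log2 CPM was 3 or more, by the smaller of the correlations of log2 CPM in the 12 vegetative libraries of year B and the 9 of year A. For *DAM1* the first was PRUPE_2G301600, with r of 0.98 in both seasons, which the study annotates as a heavy metal-associated isoprenylated plant protein. PRUPE_8G178900 and PRUPE_4G030400 followed with r of at least 0.97 in both. For *DAM4* the first was PRUPE_3G258300, with r of 0.95 in both seasons. For *DAM3* it was PRUPE_1G417400, with r of 0.92 in year B and 0.85 in year A. For *DAM2* no gene is named, because 5 of its 9 libraries in year A were at 0. No other member was among the first 3 genes of *DAM1*, *DAM3* or *DAM4*. For *DAM2* the rule could hardly give a high rank, because its counts in year A were at or near 0. Its r with *DAM3* was 0.94 in year B, above that of PRUPE_1G417400, and 0.39 in year A. These correlations are descriptions over libraries that share collection, season and depth.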

How the data were processed

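Raw counts per gene were deposited by the authors for 25 libraries, without normalization. Per the labels and the methods of the study, reads were mapped with STAR to the NCBI peach genome and counted on exons with bedtools 2.30.1, with duplicated reads discarded. Use of strand in counting is not given in the sources used here. Counts were fitted with edgeR 4.0.16 in R 4.3.3 (filterByExpr, TMM, quasi-likelihood test, Benjamini-Hochberg adjustment over all genes tested), in place of the NOISeq and Degust steps of the study. One model held the 21 vegetative libraries in 7 groups, another the 10 libraries of Pre0CU and Post770CU. Log2 CPM used a prior count of 2. Replicates of a collection differed by more than counting error, with a chi-square per gene of 2.88 to 81.5 over 23 pairs.

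Column numbers of the tables are not tied to the replicate letters of the labels. Deviations of same-numbered libraries from their group means correlated at 0.42 to 0.62 between 770CU and 475CU of year A, and not above 0.1 in every pair of any other comparison, so the numbers were taken to pair samples in that comparison alone.

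The rule for named genes gave the 4 members, the list of 15 and the 3 genes most like each member, which are not given for *DAM2*. *STM*, *PRS* and *WOX13* were bud markers, and the 4 neighbouring identifiers were added after their values were seen. Members and lists were chosen with earlier results of these data known. Alternatives were DESeq2 1.42.0, other size factors and filters, a replicate block, each library left out, and 1 model of all libraries. Figures were drawn with matplotlib 3.10.9.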

Additional observations from a re-analysis of the deposited data

Results flagged for a closer look

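The change from Pre0CU to Post770CU differed between vegetative and flower buds in all 4 members by the interaction term of edgeR, at 0.88 for *DAM1*, 0.74 for *DAM2*, 0.70 for *DAM3* and 0.81 for *DAM4* on the log2 scale. In the separate fits the change was -2.28 for *DAM1* in vegetative buds and -3.19 in flower buds, and 1.93 for *DAM4* in vegetative buds and 1.09 in flower buds. Over the alternatives tried, the adjusted p of the interaction ran up to 5.2e-05 for *DAM1*, 0.0295 for *DAM2*, 0.0188 for *DAM3* and 0.00355 for *DAM4*.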

How the results depend on the processing

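Of 668 alternative values for 48 results, 653 kept their direction and their side of the threshold, 8 reversed and 7 lost their call. By result, 36 of the 48 kept both in every alternative. Many alternatives left out 1 library and so shared most of their libraries with the main fit. At a fold change of at least 1.5 and an FDR below 0.01, *DAM4* was not called at 475CU against 200CU (0.56), nor at Post770CU against 475CU (-0.51), nor was *DAM2* at Post770CU against Pre0CU in vegetative buds (-0.56). In 1 model of all 25 libraries *DAM2* at 200CU against Pre0CU was -0.01. Without the bridge, 0CU against Pre0CU gave -4.69 for *DAM1*, -1.03 for *DAM3* and -1.93 for *DAM4*. Some alternatives were chosen after seeing the data: without both 475CU libraries of year B with high *LFY*, *DAM4* was at 0.64 and not called at 475CU against 200CU, and with a replicate block in year A alone *DAM1* was at -0.96 and not called at 770CU against 475CU.

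With each library left out in turn, *DAM4* at Post770CU against 475CU ranged from -0.55 to -0.47, *DAM3* at 475CU against 0CU from -0.78 to -0.42 and at 770CU against 475CU from -0.31 to 0.09, *DAM4* at 770CU against 0CU from -0.09 to 0.37, and *DAM3* in vegetative against flower buds at Pre0CU from -0.01 to 0.21. Leaving out a flower library left 1 in its group, which was then assumed to vary like the others.

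The replicate block in the models as fitted changed no call of a member, with *DAM1* at -0.95 for 770CU against 475CU. For the flower libraries alone the same-numbered deviations correlated at -0.15, and 11443 genes were called with the numbers as a block, 11573 with crossed pairing and 11521 with no block. The count of all genes called moved by over 1.5 times in these alternatives. With 10 counts in every library it was 11261 at 475CU of year A against year B, in place of 18517, and the median of all genes there was -0.05, in place of -0.35. Under the stricter limits it was 926 at 475CU against 200CU (1687 with the usual limits), 2343 at Post770CU against 475CU (3625), 2061 at 770CU against 475CU (3519), 3407 across the bridge (5407) and 1249 for bud types at Pre0CU (2112). It was 1321 for bud types at Pre0CU in 1 model, 18352 without the bridge, and 661 at 475CU against 200CU and 2169 at Post770CU against 475CU without both libraries high in *LFY*.

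Requiring at least 10 counts in every library left *DAM2* without a value in the vegetative model. Fitted folds of *DAM2* within year A and across the bridge are not given, because its counts in year A were at or near the floor.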
